A study of Homo sapiens with 12 samples.

Results

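Placental growth factor (PGF) and the vascular endothelial growth factor (VEGF) family were followed in HCT116, a human colorectal cancer cell line. The 8 members were the ligands PGF, VEGFA, VEGFB and VEGFC, the receptor tyrosine kinases FLT1 and KDR, and the co-receptors NRP1 and NRP2. They were found by matching each symbol against the gene names of every locus in the expression table, and took 8 of its 57908 loci. PGF was selected on its measured FPKM in these samples, being among the loci that differed most after doxorubicin, so its differences after doxorubicin are given here without a test. The other 7 were named for their place in the family.

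Cells were transfected with a control plasmid, a plasmid for NSE4A-flag or a plasmid for SMC5-flag, and each culture was split 24 h later. One portion then received 1000 nM doxorubicin and the other PBS, both for 24 h. NSE4A (gene NSMCE4A) and SMC5 are subunits of the SMC5/6 complex, which acts on damaged and replicating DNA, and doxorubicin is a chemotherapy drug that poisons topoisomerase II and so breaks DNA. The control is called GFP in the sample titles and vector in the design text, and is called GFP here, with NSE4 and SMC5 for the others. Every group was transfected, so none shows untransfected HCT116, and messenger RNA was sequenced in 2 libraries for each of the 6 groups.

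VEGF ligands are secreted dimers that bind receptor tyrosine kinases, most densely carried by endothelial cells, and so drive the growth of blood and lymph vessels. VEGFA binds both FLT1 and KDR, whereas PGF and VEGFB bind FLT1 and not KDR, and VEGFC acts mainly through the lymphatic receptor FLT4 and through KDR. NRP1 and NRP2 are neuropilins, membrane proteins with a short intracellular tail that bind VEGF ligands beside the kinases and also serve as receptors for class 3 semaphorins. Carcinoma cells commonly secrete VEGFA, and transcription of VEGFA and PGF is known to respond to low oxygen, that of PGF also to the metal-responsive factor MTF1.

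The promoters of PGF and NRP2 are shown because these were the members, besides VEGFA, whose samples separated by treatment. Such separation was not counted over all loci, so it does not set these members apart from other genes. Of the 8 members 6 matched a RefSeq promoter entry (GRCh38.p14), with none for VEGFA or NRP1. Each sequence is the 250 bases before the most upstream start, written 5′ to 3′ on the gene's strand, with GC boxes (GGGCGG on either strand) in capitals. The PGF window is chr14:74955765-74956014 on the minus strand, and the NRP2 window is chr2:205682251-205682500 on the plus strand.
PGF: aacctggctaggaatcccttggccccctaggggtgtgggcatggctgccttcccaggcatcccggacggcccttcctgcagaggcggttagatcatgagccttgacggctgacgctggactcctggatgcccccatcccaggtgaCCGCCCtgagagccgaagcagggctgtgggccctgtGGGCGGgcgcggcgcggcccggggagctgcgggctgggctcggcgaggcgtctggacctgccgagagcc
NRP2: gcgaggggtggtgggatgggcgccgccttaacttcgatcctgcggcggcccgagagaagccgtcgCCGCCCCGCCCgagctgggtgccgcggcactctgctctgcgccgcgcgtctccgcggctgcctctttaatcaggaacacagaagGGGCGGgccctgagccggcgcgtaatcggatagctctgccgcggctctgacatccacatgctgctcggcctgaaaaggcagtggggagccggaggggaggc
The PGF window held 2 GC boxes and was 70.8% G or C. The NRP2 window held 3 GC boxes, 2 of which overlap, and was 70% G or C. A GC box stood in 42.6% of the 35116 windows of this length, whose median was 58% G or C. Neither window held the metal response cores TGCACNC (in 9.9% of all windows) or TGCGCNC (16.8%). The hypoxia response cores ACGTG (18.5%) and GCGTG (32.2%), the E-box CACGTG (6.3%), which contains ACGTG, and the p53 half-site (5.6%) were likewise not matched on either strand in these 250 bases. PGF had 2 promoter entries, and matches are given only for the most upstream.

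Expression is given in FPKM, fragments per kilobase of transcript scaled to the depth of the library, so levels may be set beside each other between genes. Differences and their tests are on the log2(FPKM + 1) scale. Of the 8 members, 5 (PGF, VEGFA, the locus with VEGFB, NRP1 and the locus with NRP2) reached 1 FPKM in all 11 samples and were among the 15833 loci tested. VEGFC, FLT1 and KDR reached it in none and were not tested. The locus that holds VEGFB also holds DNAJC4, FKBP2 and NUDT22, so its value cannot be assigned to VEGFB. The NRP2 locus also carries the noncoding name AC007362.1.

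Libraries held about 13.2 to 19.3 M fragments (M, 1e6), as estimated from the FPKM step of a single fragment, and 23635 to 26185 loci above 0. The 2 columns of SMC5 cells given doxorubicin were near identical: 1091 of their values above 0 were equal, against 0 in each of the other 5 pairs. Only 7 loci were above 0 in 1 of the 2 columns alone, against 4216 to 5291 in the other pairs. Single loci could still differ between them, as PGF did at 68.1 and 86.2 FPKM. They were averaged and counted as 1 sample, which left 11 samples, 6 with PBS and 5 with doxorubicin, and their spread is taken from the other groups. The labels do not state whether both libraries in a group were grown as cultures apart. The p-values therefore reflect the spread among these samples alone, and that spread may be technical. NSMCE4A stood at 4069 to 6287 FPKM in NSE4 libraries against 32.6 to 89.4 elsewhere, and SMC5 at 772 to 979 FPKM in SMC5 libraries against 7.02 to 34.4 elsewhere. Epithelial markers summed to 1974 to 2229 FPKM with PBS and 2054 to 2361 FPKM with doxorubicin. Of these 10 loci, 3 were under 1 FPKM in every PBS sample and 3 in every doxorubicin sample. In GFP cells 3 of 7 tested loci were called higher and 1 lower, against 17% and 14.1% of all tested loci. With no filter on low values, 2 were called higher. Of 10 endothelial marker loci, 9 were under 1 FPKM in every sample, the exception being EGFL7. With EGFL7 they summed to 65.2 to 84.4 FPKM with PBS and 49.1 to 61.2 FPKM with doxorubicin. Without EGFL7 they summed to 0.347 to 1.41 FPKM with PBS and 0.969 to 2.11 FPKM with doxorubicin. The log2 difference of EGFL7 was -0.44 in GFP cells, not called in the main fit but called lower under some alternatives. Fibroblast and pericyte markers summed to 33.2 to 40.1 FPKM with PBS and 33.7 to 47.4 FPKM with doxorubicin. Of these 13 loci, 10 were under 1 FPKM in every PBS sample and 9 in every doxorubicin sample, so the sums rest on few loci. Leukocyte markers summed to 0.694 to 1.49 FPKM with PBS and 1.50 to 3.46 FPKM with doxorubicin (ITGAM 0.261 to 1.27 and 0.920 to 3.05 FPKM), while PTPRC, the pan-leukocyte marker, did not exceed 0.0378 FPKM. The part of these markers in the results below was not tested. In bulk RNA, more cells of a kind and more RNA per cell cannot be told apart.

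PGF, a ligand of FLT1, was a low transcript with PBS and a high one with doxorubicin, whichever plasmid the cells carried. With PBS it stood at 5.21 and 5.79 in GFP cells, 5.43 and 7.11 in NSE4 cells, and 6.07 and 6.06 FPKM in SMC5 cells. In doxorubicin-treated cells it stood at 60.8 and 83.3 in GFP cells, 71.1 and 80.4 in NSE4 cells, and 68.1 and 86.2 FPKM in the near-identical columns of SMC5 cells (mean 77.2 FPKM). All doxorubicin libraries were high and all PBS libraries low, as the choice of the gene fixes. Group means were 72.1 ± 15.9 against 5.50 ± 0.41 FPKM (SD, n = 2 each) in GFP cells, a ratio of 13.1. They were 75.8 ± 6.55 against 6.27 ± 1.19 FPKM (SD, n = 2 each) in NSE4 cells, a ratio of 12.1. In SMC5 cells 77.2 FPKM in 1 sample stood against 6.07 ± 0.0046 FPKM (SD, n = 2), a ratio of 12.7. The 3 ratios lay close together.

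On the log2(FPKM + 1) scale the PGF difference was 3.48 (SE 0.17) in GFP cells, 3.41 (SE 0.17) in NSE4 cells and 3.47 (SE 0.21) in SMC5 cells. Among the 15833 loci, ordered by this difference, PGF came 14th in GFP cells, 8th in NSE4 cells and 27th in SMC5 cells. Its neighbours in that order among loci with 1 name included noncoding RNAs: in GFP cells the small nuclear RNA RN7SK (3.51) stood just above and AL355075.4 (3.47) just below. In NSE4 cells the small nucleolar RNAs SNORA73B (3.44) and SNORA23 (3.27) stood on either side, and in SMC5 cells AC115085.1 (3.52) and AC087362.2 (3.37). Among tested loci the percentile of PGF's FPKM was 39.97 to 45.6 with PBS and 90.7 to 92.8 with doxorubicin.

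**Figure D1:**
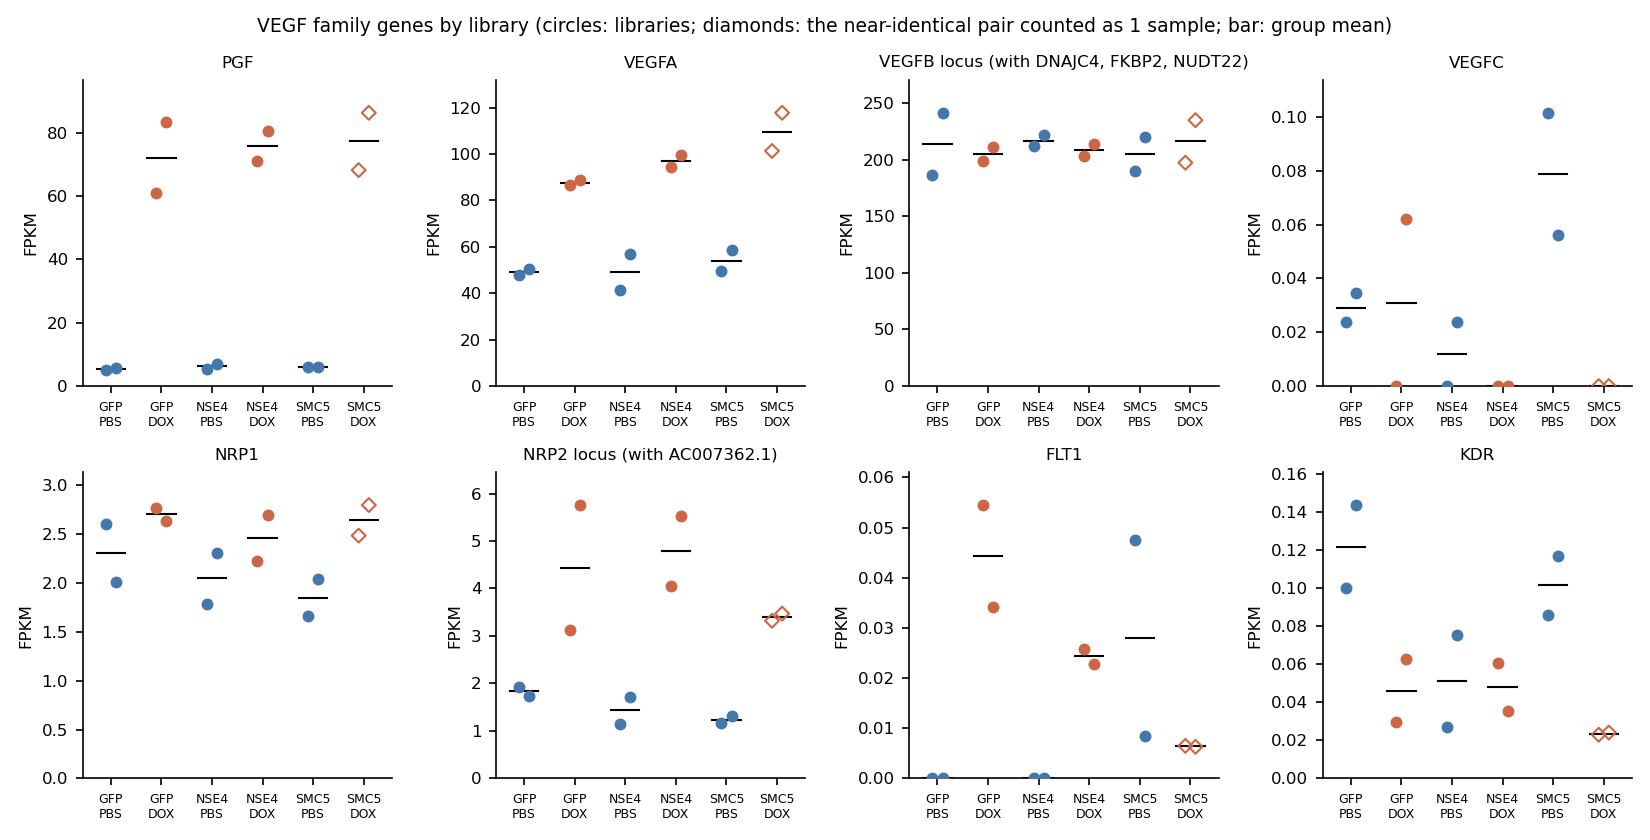
FPKM of each family member (vertical axis, linear, from 0, with its own scale per panel) in each library, by plasmid and treatment (PBS in blue, doxorubicin, DOX, in orange; open diamonds are the near-identical pair, bars are group means). PGF lies at 5.21 to 7.11 FPKM in every PBS library and at 60.8 FPKM or more in every doxorubicin library, while VEGFC, FLT1 and KDR stay under 0.15 FPKM throughout.

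VEGFA, the main driver of vessel growth and a ligand of both kinases, was already abundant with PBS and rose after doxorubicin in cells with each plasmid. With PBS it stood at 47.9 and 50.5 in GFP cells, 41.2 and 56.9 in NSE4 cells, and 49.7 and 58.5 FPKM in SMC5 cells. With doxorubicin it stood at 86.6 and 88.7 in GFP cells, 94.6 and 99.4 in NSE4 cells, and 101 and 118 FPKM in the SMC5 columns (mean 109.5 FPKM). The treatments did not overlap in any of the 11 samples, a separation that was not counted over all loci. The log2 difference was 0.82 (SE 0.15) in GFP cells (ratio of mean FPKM 1.78, limma adjusted p = 0.0046), 0.99 (SE 0.15) in NSE4 cells (ratio 1.98, adjusted p = 0.00208) and 1.01 (SE 0.18) in SMC5 cells (ratio 2.03, adjusted p = 0.00724). VEGFA kept its call whichever library was left out, with adjusted p between 0.0244 and 0.0323 in GFP cells, 0.0014 and 0.0174 in NSE4 cells, and 0.00465 and 0.0378 in SMC5 cells.

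The locus that holds VEGFB, a ligand of FLT1, was the most abundant of the 8 and gave no call. With PBS it ranged from 186 to 241 FPKM (median 216, n = 6), and with doxorubicin from 199 to 216 FPKM (median 211, n = 5). The doxorubicin samples lay inside the PBS range. Its log2 difference was -0.05 (SE 0.13, limma adjusted p = 0.806) in GFP cells, -0.06 (SE 0.13, adjusted p = 0.782) in NSE4 cells and 0.08 (SE 0.16, adjusted p = 0.772) in SMC5 cells.

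VEGFC, the lymphatic ligand, was close to the limit of detection. It was listed at 0.0239 and 0.0345 in GFP cells with PBS, 0 and 0.0236 in NSE4 cells with PBS, and 0.102 and 0.0563 FPKM in SMC5 cells with PBS. With doxorubicin it was listed at 0 in every library but GFP replicate 2, which had 0.062 FPKM. These values stood for at most about 3.7 fragments, since 1 fragment was worth 0.0251 to 0.0367 FPKM for this gene, so a difference was not detectable at this depth.

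PGF and VEGFA, the 2 ligands tested at loci of their own, stood in a different proportion with each treatment. PGF made up 9.39 to 11.6% of the summed FPKM of PGF and VEGFA with PBS (median 10.6%, n = 6) and 41.2 to 48.4% with doxorubicin (median 42.9%, n = 5). The sum itself was 46.6 to 64.5 FPKM with PBS and 147 to 187 FPKM with doxorubicin. Put as a ratio, VEGFA exceeded PGF 7.59 to 9.64 times with PBS and 1.06 to 1.42 times with doxorubicin, so VEGFA was the higher of the pair in every sample. These shares rest on the PGF values that chose the gene and carry no test.

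**Figure D2:**
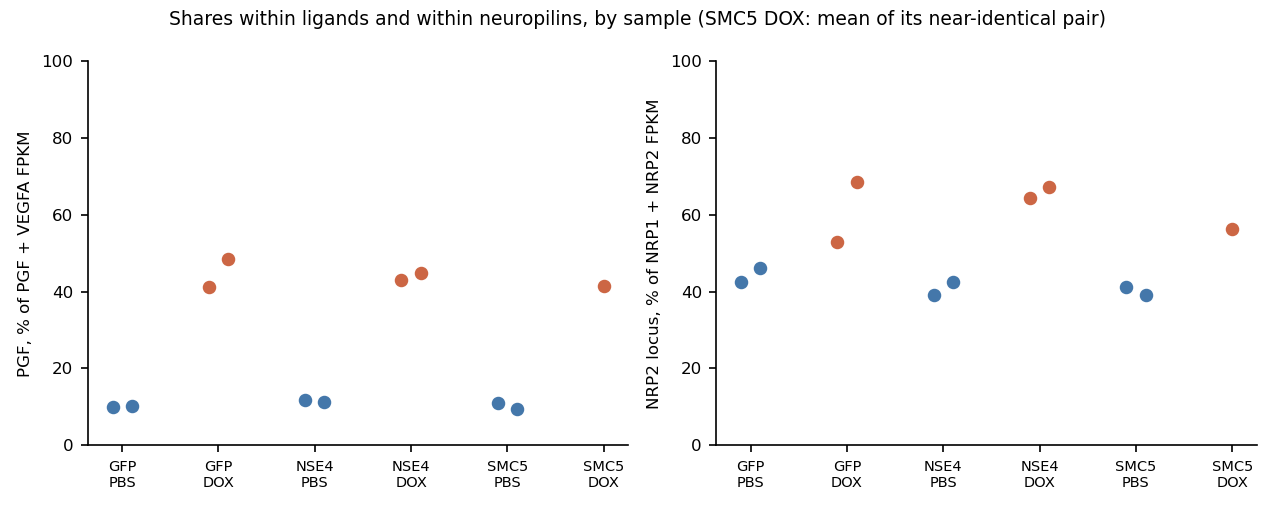
Left, PGF as a percentage of the summed FPKM of PGF and VEGFA; right, the NRP2 locus as a percentage of the summed FPKM of NRP1 and NRP2, each point 1 sample, by plasmid and treatment (PBS in blue, doxorubicin, DOX, in orange). With doxorubicin both percentages lie above every PBS sample, at 41.2% or more for PGF and 52.9% or more for NRP2.

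The 2 signalling receptors were nearly absent from these cells with either treatment. FLT1, which binds PGF, VEGFA and VEGFB, was listed at 0 in both GFP libraries and both NSE4 libraries with PBS, and at 0.0476 and 0.0084 FPKM in SMC5 cells with PBS. With doxorubicin it stood at 0.0545 and 0.0342 in GFP cells, 0.0259 and 0.0229 in NSE4 cells, and 0.0065 and 0.0063 FPKM in the SMC5 columns. The highest of these was about 6.1 fragments. The treatments overlapped through the SMC5 libraries, and FLT1 stayed under 0.06 FPKM in samples where its ligand PGF passed 60 FPKM.

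KDR, the main signalling receptor for VEGFA, was above 0 in every library. With PBS it stood at 0.0999 and 0.143 in GFP cells, 0.0271 and 0.075 in NSE4 cells, and 0.086 and 0.117 FPKM in SMC5 cells. With doxorubicin it stood at 0.0295 and 0.0625 in GFP cells, 0.0607 and 0.0355 in NSE4 cells, and 0.0229 and 0.024 FPKM in the SMC5 columns. The median was 0.0929 FPKM with PBS and 0.0355 FPKM with doxorubicin, but the ranges overlapped and the values stood for about 2.4 to 11.7 fragments, so no difference is drawn. FLT4, the receptor of VEGFC, was no member and was likewise under 1 FPKM in every sample (0.0139 to 0.276 FPKM with PBS and 0.0613 to 0.287 FPKM with doxorubicin).

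Among the co-receptors, NRP2 was higher with doxorubicin in every sample, and NRP1 was not called. With PBS the NRP2 locus stood at 1.93 and 1.73 in GFP cells, 1.15 and 1.71 in NSE4 cells, and 1.17 and 1.31 FPKM in SMC5 cells. With doxorubicin it stood at 3.12 and 5.76 in GFP cells, 4.05 and 5.53 in NSE4 cells, and 3.32 and 3.47 FPKM in the SMC5 columns (mean 3.39 FPKM). The treatments did not overlap, a separation that was not counted over all loci, and the pair of GFP libraries with doxorubicin lay furthest apart.

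The log2 difference of the NRP2 locus was 0.90 (SE 0.25) in GFP cells (ratio of mean FPKM 2.43, limma adjusted p = 0.0264) and 1.25 (SE 0.25) in NSE4 cells (ratio 3.35, adjusted p = 0.00722). In SMC5 cells it was 0.97 (SE 0.30, 95% interval 0.28 to 1.67, ratio 2.74), and the adjusted p of 0.0547 missed the threshold of 0.05. The GFP call was lost without GFP PBS replicate 1 (limma adjusted p = 0.0805), without GFP PBS replicate 2 (0.111) and without GFP doxorubicin replicate 2 (0.14), the last also taking the difference to 0.54. The NSE4 call was lost without NSE4 doxorubicin replicate 2 (adjusted p = 0.0515), and in SMC5 cells a call was gained without the first of the near-identical columns (0.0486).

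NRP1, the co-receptor of VEGFA and of SEMA3A, was measured at 2.61 and 2.02 in GFP cells with PBS, 1.79 and 2.31 in NSE4 cells, and 1.66 and 2.04 FPKM in SMC5 cells. With doxorubicin it stood at 2.77 and 2.64 in GFP cells, 2.23 and 2.70 in NSE4 cells, and 2.49 and 2.80 FPKM in the SMC5 columns. The ranges overlapped. Its log2 difference was 0.17 (SE 0.17, limma adjusted p = 0.486) in GFP cells, 0.18 (SE 0.17, adjusted p = 0.44) in NSE4 cells and 0.36 (SE 0.21, adjusted p = 0.256) in SMC5 cells. NRP2 stood at 0.643 to 0.858 times NRP1 in FPKM with PBS and at 1.13 to 2.18 times with doxorubicin, so the order of the neuropilins differed between treatments in each of the 11 samples.

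**Figure D3:**
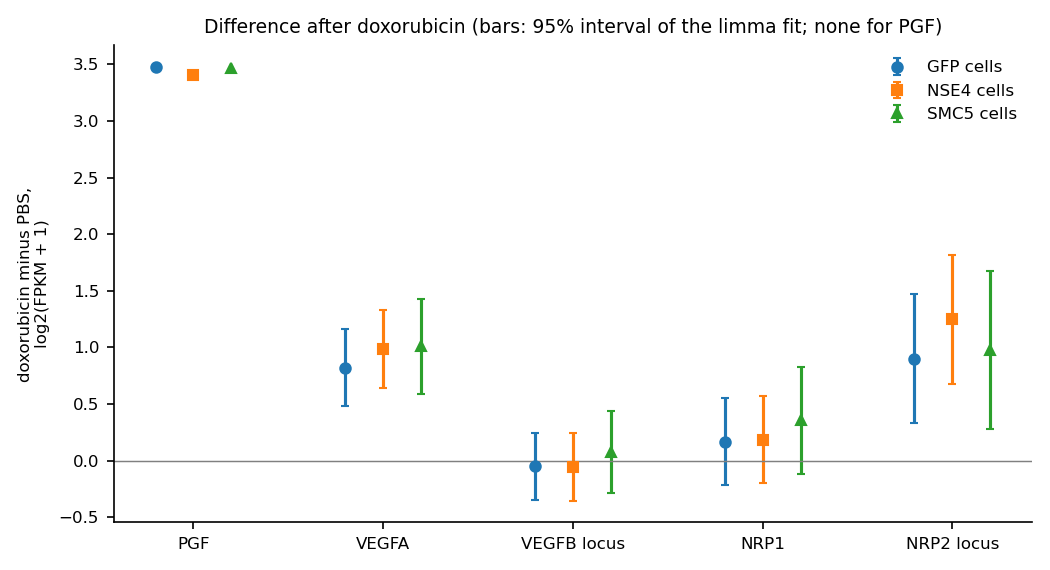
Difference between doxorubicin and PBS in log2(FPKM + 1) (vertical axis) for 5 members, in cells with each plasmid (circles GFP, squares NSE4, triangles SMC5; bars are 95% intervals of the limma fit, not drawn for PGF, which was chosen for this difference). PGF stands at 3.41 to 3.48, VEGFA and the NRP2 locus at 0.82 to 1.25, and the intervals of NRP1 and the VEGFB locus include 0.

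Counted over the 4 tested members other than PGF, 2 (VEGFA and NRP2) were called after doxorubicin in GFP cells, where 31.1% of all tested loci were called and 17% were called higher. In NSE4 cells the same count was 2 of 4, VEGFA and NRP2 again, where 30.2% of all loci were called and 16.3% called higher. In SMC5 cells VEGFA alone was called, 1 of 4, where 20.9% of all loci were called and 11% called higher. With so few members, these counts do not set the family apart from the other loci. No member was called lower. The median log2 difference of all tested loci was 0.02 in GFP cells, 0.03 in NSE4 cells and 0.02 in SMC5 cells.

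The plasmids left the family at levels that the test did not separate. By mean, PGF was ordered GFP, SMC5, NSE4 with PBS (5.50, 6.07 and 6.27 FPKM) and GFP, NSE4, SMC5 with doxorubicin (72.1, 75.8 and 77.2 FPKM). The SMC5 samples with PBS lay within the range of NSE4 cells, and with doxorubicin the NSE4 and SMC5 samples lay within that of GFP cells. NSE4 and SMC5 cells were not tested against each other. Against GFP cells, the log2 difference of PGF was 0.15 in NSE4 cells with PBS (95% interval -0.24 to 0.54) and 0.09 with doxorubicin (-0.30 to 0.48). In SMC5 cells it was 0.12 with PBS (-0.27 to 0.51) and 0.12 with doxorubicin (-0.36 to 0.59). Both plasmids are set against the same GFP libraries, so these differences are not independent of each other.

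By mean, VEGFA was ordered NSE4, GFP, SMC5 with PBS (49.1, 49.2 and 54.1 FPKM), where the ranges overlapped. With doxorubicin it was ordered GFP, NSE4, SMC5 (87.6, 97.0 and 109.5 FPKM), with 1 sample for SMC5 cells and so no range there. In SMC5 cells with doxorubicin it had the smallest unadjusted p of the members in any plasmid comparison, 0.118, with a log2 difference of 0.32 (95% interval -0.10 to 0.74). The widest differences were in the NRP2 locus, at -0.34 in SMC5 cells with PBS (-0.91 to 0.23) and 0.35 for the change in its doxorubicin difference with NSE4 (-0.46 to 1.16). That last kind of comparison, the interaction, asks whether doxorubicin acted by a different amount in cells with another plasmid. For PGF the interaction was -0.07 with NSE4 (95% interval -0.62 to 0.48) and -0.01 with SMC5 (-0.62 to 0.61), so the intervals leave room for a change of about 0.6 log2 units in either direction.

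Over 4 plasmid comparisons and 2 interactions, 0 of 5 tested members passed in any, all 30 limma adjusted p-values were 1, and 0 had an unadjusted p under 0.05. Over all loci, 0.0442% were called between NSE4 and GFP cells with PBS and 0.0568% with doxorubicin. Between SMC5 and GFP cells 0% were called with PBS, where 489 of 15833 loci had an unadjusted p under 0.05, and 0.0316% with doxorubicin. The SMC5 transcript itself, 5.66 higher on the log2 scale with PBS (SE 0.75, unadjusted p = 5.59e-05) and 6.02 with doxorubicin (SE 0.92), was not called there (limma adjusted p = 0.27 and 0.272), so these comparisons can miss large differences in genes that vary between libraries. NSMCE4A was called in NSE4 cells with PBS (limma adjusted p = 9.03e-07) and with doxorubicin (4.46e-07). The interactions called 0.0316% of loci with NSE4 and 0.0189% with SMC5.

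**Figure D4:**
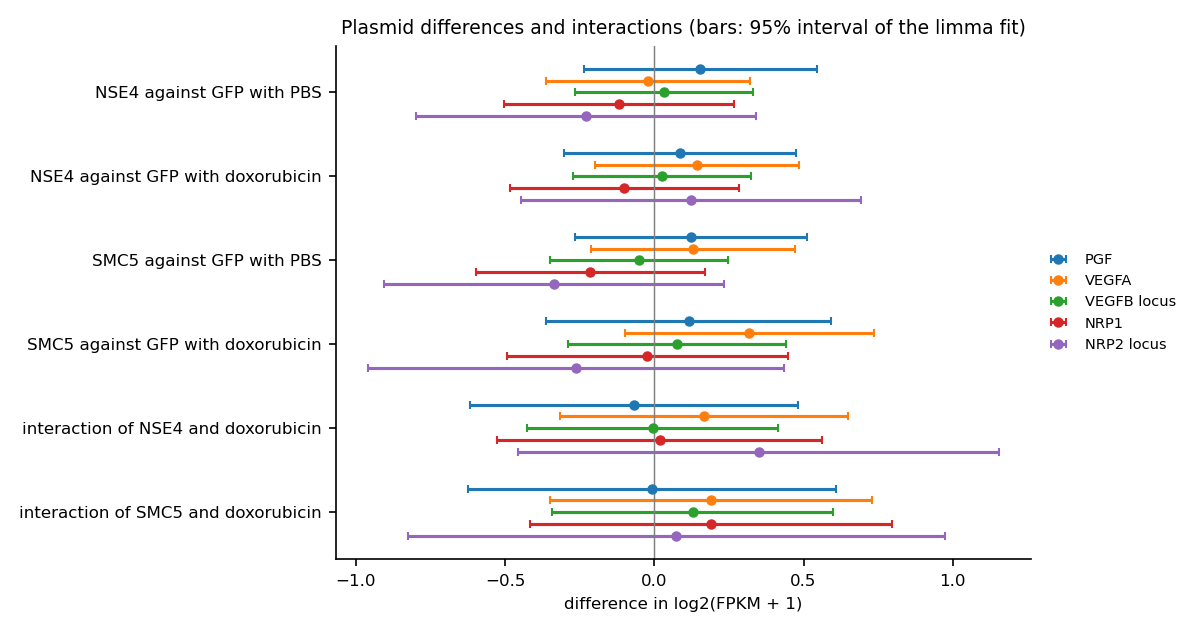
Log2(FPKM + 1) differences of the 5 tested members (colours) between plasmids with PBS or doxorubicin, and the interactions of plasmid with doxorubicin (horizontal axis; bars are 95% intervals of the limma fit). All 30 points lie between -0.34 and 0.35, and every interval includes 0.

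Other genes of the pathway were read from lists by role, with loci that hold another coding gene left out. Calls below are from GFP cells, where 17% of all tested loci were called higher and 14.1% lower, with limma adjusted p-values. Among ligands and receptors related to the family, 3 loci were tested, with 1 that rose, 1 that fell and a median log2 difference of -0.73. PDGFB, a platelet-derived growth factor, rose from 8.97–11.2 FPKM with PBS to 15.5–17.6 FPKM with doxorubicin over all plasmids (0.73 in GFP cells, adjusted p = 0.00281). PDGFC, of the same family, fell from 8.51–11.4 FPKM to 2.39–3.13 FPKM (-1.50, adjusted p = 0.000129). Without GFP PBS replicate 1, 2 of the 3 fell.

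Semaphorins, plexins and GIPC1, listed as other partners of neuropilins, changed in both directions: of 11 tested loci 3 rose and 4 fell, with a median of -0.25. SEMA3F, a ligand of NRP2, rose from 10.9–16.5 FPKM with PBS to 27.0–33.1 FPKM with doxorubicin (log2 difference 1.15 in GFP cells, adjusted p = 0.00234). SEMA3G, another class 3 semaphorin, rose from 2.25–4.02 FPKM to 8.71–10.4 FPKM (1.16, adjusted p = 0.00243). SEMA3A, the ligand of NRP1, fell from 8.66–11.5 FPKM to 2.47–4.31 FPKM (-1.38, adjusted p = 0.00208). The semaphorin co-receptor PLXNA3 rose from 20.4–34.4 FPKM to 47.3–59.0 FPKM (0.93, adjusted p = 0.00557). These 4 genes were also called in NSE4 cells, and their treatments did not overlap in any sample, a separation not counted over all loci. In SMC5 cells, with 1 doxorubicin sample, the calls of SEMA3F, SEMA3A and PLXNA3 were lost under some alternatives. The 3 that rose kept that count whichever of the 4 GFP libraries was left out, while the number that fell dropped to 1 or 2 with each of them.

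Downstream of the receptors, 4 of 13 signalling loci rose and 3 fell (median -0.18). SPHK1, the sphingosine kinase, rose from 6.49–9.24 FPKM with PBS to 34.4–44.1 FPKM with doxorubicin (log2 difference 2.31 in GFP cells, adjusted p = 6.15e-05). SH2D2A, an adaptor that binds KDR, rose from 1.51–2.43 FPKM to 8.93–11.3 FPKM (1.64, adjusted p = 0.000257). The kinase AKT1 fell from 64.1–84.1 FPKM to 36.2–42.9 FPKM (-0.73, adjusted p = 0.00687). The number that rose was 2 without GFP PBS replicate 2 and without GFP doxorubicin replicate 2, and the number that fell was 1 without GFP PBS replicate 1, without GFP PBS replicate 2 and without GFP doxorubicin replicate 1.

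Hypoxia-inducible factors and their targets, a list to which VEGFA belongs by function but in which it was not counted, held 17 tested loci, of which 0 rose and 3 fell (median -0.17). ADM, the vasodilator adrenomedullin, fell from 130–190.2 FPKM with PBS to 80.6–91.2 FPKM with doxorubicin (log2 difference -0.96, adjusted p = 0.00346). The number that fell was 1 without GFP PBS replicate 2 and without GFP doxorubicin replicate 2. In GFP cells 0 loci of this list were higher with an unadjusted p under 0.05, and the highest log2 difference was 0.27, that of the demethylase KDM3A. Counts that rose were also 0 in NSE4 and SMC5 cells, but 1 in NSE4 cells without NSE4 doxorubicin replicate 1, with no filter on low values or with the replicate block, and 1 in SMC5 cells with the 12 columns kept separate.

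The metal-responsive factor MTF1 and its targets had 6 tested loci, of which 1 rose and 3 fell (median -0.30), counts that were the same with each GFP library left out. SLC30A1, a zinc exporter, rose from 3.64–4.88 FPKM to 24.5–30.1 FPKM (log2 difference 2.49, adjusted p = 4.89e-05). The metallothionein MT2A, which binds zinc and copper, fell from 1029.7–1345 FPKM to 438–542 FPKM (-1.32, adjusted p = 0.000547). MT1F fell from 21.3–27.2 FPKM to 9.70–12.4 FPKM (-0.89, adjusted p = 0.000778), and MT1X, at a locus with a noncoding gene and a pseudogene, fell from 432–553 FPKM to 286–311 FPKM (-0.67, adjusted p = 0.00276). Metallothionein genes are near-identical copies, so reads may be shared among them.

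Of 10 loci for other angiogenic factors 1 rose and 3 fell (median -0.25). HBEGF, a ligand of the epidermal growth factor receptor, rose from 6.58–8.87 FPKM to 20.8–25.2 FPKM (log2 difference 1.52, adjusted p = 0.000454). The number that fell was 0 without GFP doxorubicin replicate 2 and 1 without GFP PBS replicate 1. Of 9 loci for angiogenesis inhibitors 3 rose and 3 fell (median 0.13). The serpin SERPINB5 rose from 16.1–18.3 FPKM to 63.6–74.5 FPKM (1.95, adjusted p = 3.51e-05), and THBS1, thrombospondin, from 3.41–4.73 FPKM to 9.54–11.4 FPKM (1.32, adjusted p = 0.00033). COL18A1, the collagen from which endostatin is cleaved, fell from 25.2–32.6 FPKM to 13.3–17.0 FPKM (-0.99, adjusted p = 0.0022). The numbers of inhibitors that rose and that fell were each smaller with some of the GFP libraries left out.

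**Figure D5:**
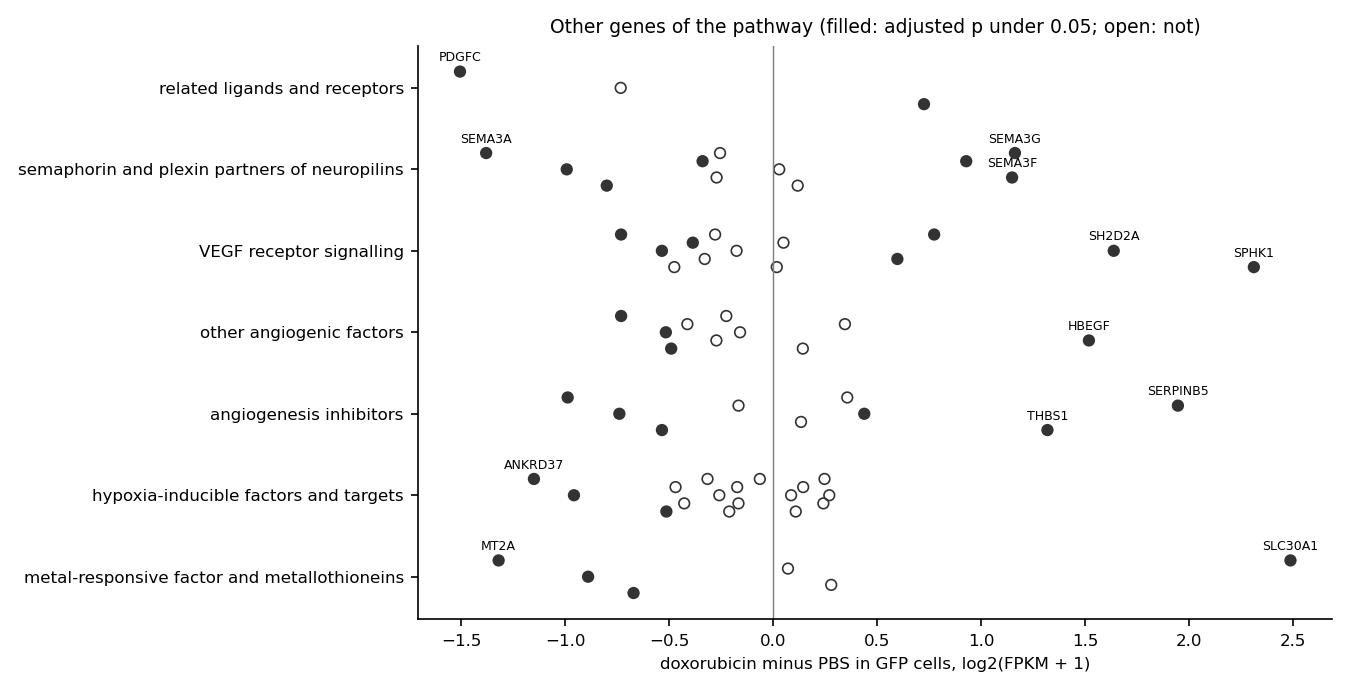
Difference between doxorubicin and PBS in GFP cells in log2(FPKM + 1) (horizontal axis) for the tested loci of 7 lists of pathway genes; filled points have a limma adjusted p under 0.05, open points do not. Filled points lie on both sides of 0 in every list but the hypoxia list, where 0 of 17 loci rose and 3 fell. SLC30A1 (2.49) and SPHK1 (2.31) lie furthest to the right and PDGFC (-1.50) furthest to the left.

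Across the 81 tested loci of these lists and of the cell type markers, 0 of 486 limma adjusted p-values passed in the plasmid comparisons and interactions, and 6 had an unadjusted p under 0.05.

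The loci whose pattern over the 11 samples was most like that of PGF, by Pearson r on log2(FPKM + 1) among 11842 other loci with 1 name, were KRT80 (0.9993), CDIP1 (0.9993), TAP1 (0.9988), GPX1 (0.9986) and C17orf80 (0.9985). KRT80, a keratin, stood at 1.46 to 1.86 FPKM with PBS and 15.1 to 21.7 FPKM with doxorubicin. CDIP1, a proapoptotic membrane protein, stood at 3.90 to 5.27 and 36.9 to 51.6 FPKM. TAP1, a transporter of antigenic peptides, and GPX1, a glutathione peroxidase, were at least 72.2 and 1311 FPKM with doxorubicin, against at most 35.8 and 419 FPKM with PBS. The samples fall into 2 sets by treatment, which fixes much of such an r: 172 loci passed 0.99 with PGF. For VEGFA the closest locus was MOV10 (0.9885) and 0 loci passed 0.99.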

How the data were processed

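The 12 messenger RNA libraries came from HCT116 cells, 2 for each of 6 groups. The authors deposited FPKM values for 57908 loci; TopHat and Cufflinks are named per the submitters' processing notes, and their versions and the genome build are not given in the sources used here. FPKM divides by the fragments mapped, so a very abundant transcript lowers every other value, and loci in which several genes overlap share 1 value. The FPKM worth of 1 fragment, read from the steps between low values, gave each library's depth.

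Values were analysed as log2(FPKM + 1) with limma 3.58.1 (R 4.3.3): all 6 groups in 1 fit, an intensity trend, 5 residual degrees of freedom, loci of at least 1 FPKM in at least 2 samples, and Benjamini-Hochberg adjustment over all 15833 loci within each of 9 comparisons (threshold 0.05). The 2 near-identical columns of SMC5 cells with doxorubicin were averaged as 1 sample. The fit was tested on simulated data. Tables were handled with pandas 2.3.3 in Python 3.11.15. RefSeq promoter windows and annotation gave names, lengths and sequences only.

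The members and lists were chosen with earlier results of these data known. Every family member is named. From each other list the genes named are mostly among the 4 of smallest p in GFP cells. FLT4 and PTPRC were below the filter and not tested, and KDM3A is named for its log2 difference. The 5 loci most like PGF are named for likeness. The alternatives were 2 other scalings, no filter and a filter at 5 FPKM, a pseudocount of 0.1, a replicate block, only the groups compared, the 12 columns kept separate, and each replicate left out. No explanation of a difference was tested.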

Additional observations from a re-analysis of the deposited data

How the results depend on the processing

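VEGFA kept its direction and its call after doxorubicin in cells with each plasmid under every alternative run. The number of members called beside PGF moved only with NRP2. In GFP cells it was 1 in place of 2 with no filter on low values (NRP2 adjusted p = 0.0798) and 1 to 2 with a replicate left out. In NSE4 cells it was 1 to 2 with a replicate left out. In SMC5 cells it was 2 in place of 1 with median-of-ratios scaling (NRP2 adjusted p = 0.0352), a pseudocount of 0.1 (0.04), only the groups compared (0.0239) and the 12 columns kept separate (0.0104, which counts 1 sample as 2), and 1 to 2 with a replicate left out. The cause was not tested. With a replicate block the SMC5 count was 2 (NRP2 adjusted p = 0.0201) and the PGF interaction with SMC5 was 0.10; the block changed no other call of a member. In that block the averaged SMC5 doxorubicin sample was entered as replicate 1, though it holds both columns, so SMC5 values under the block depend on this coding. The median log2 difference of all loci after doxorubicin in SMC5 cells was 0.0555 with the block and 0.0157 without it. The transfected cells were split between treatments, but the labels do not say whether a shared number marks portions of 1 culture. The deviations of same-numbered samples had correlations of -0.039 to 0.074 over 10 pairs of groups. Only PBS and doxorubicin samples of the same plasmid could be portions of 1 culture. Their correlation was -0.007 in GFP cells and 0.036 in NSE4 cells, and the block was kept as an alternative.

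The PGF difference in GFP cells was 3.67 with a pseudocount of 0.1 and 3.25 to 3.70 with a replicate left out. Signs turned only in differences that were not called. The VEGFB locus had 0.083 in GFP cells and 0.11 in NSE4 cells under quantile normalization, and with a replicate left out -0.24 to 0.14 in GFP cells and -0.053 to 0.20 in SMC5 cells. With a replicate left out, the PGF difference between NSE4 and GFP cells was -0.013 to 0.32 with PBS and -0.14 to 0.31 with doxorubicin, and between SMC5 and GFP cells with doxorubicin -0.11 to 0.34. The PGF interaction was then -0.29 to 0.16 with NSE4 and -0.23 to 0.22 with SMC5 (0.0020 under median-of-ratios scaling), and that of NRP2 with NSE4 -0.0075 to 0.71.

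Counts over all loci after doxorubicin were 2956 to 3554 in GFP cells with a replicate left out, against 4919, 2926 to 3598 in NSE4 cells against 4780, and 1798 to 3523 in SMC5 cells against 3310 (6077 with the 12 columns kept separate). With no filter, 100 loci were called between NSE4 and GFP cells with doxorubicin (9 with the filter), 539 between SMC5 and GFP cells with doxorubicin (5), 71 for the NSE4 interaction (5) and 431 for the SMC5 interaction (3), and 0 of 5 members in each. With PBS, 2 to 11 loci were called between NSE4 and GFP cells (7) and 0 to 11 between SMC5 and GFP cells (0) over the alternatives. No scaling moved the median of all loci by over 0.1 (log2).

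Depth limits VEGFC, FLT1 and KDR, whose values rest on about 11.7 fragments or fewer. With 2 libraries a group, and 1 sample for SMC5 cells with doxorubicin, the 95% intervals of the members' plasmid differences reach from -0.96 to 0.74.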
